A study of Mus musculus with 42 samples.

Results

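The NRF2 and glutathione antioxidant genes are 47 named genes of 22186 in the expression table, chosen by name and role. Earlier results of these data were known at that choice, so shares set beside all genes describe the list and do not test it. The 47 genes were followed in 42 mouse RNA-seq libraries from cells exposed to bisphenol S (BPS), a substitute for bisphenol A in plastics and thermal paper, or to its ethanol vehicle. NRF2, encoded by Nfe2l2, is a transcription factor that the adaptor protein KEAP1 hands over for degradation. When electrophiles or oxidants modify KEAP1, NRF2 accumulates, enters the nucleus with a small MAF protein and binds antioxidant response elements in its target genes. These targets make glutathione, couple it to reactive compounds through glutathione S-transferases, recycle it with NADPH, reduce peroxides through glutathione peroxidases, thioredoxin and peroxiredoxins, and break down quinones, heme and epoxides. The list holds 2 regulators (Nfe2l2 and Keap1), 14 glutathione transferases, 9 genes of glutathione synthesis, reduction and peroxidases, 5 of the thioredoxin and peroxiredoxin system, 3 of catalase and superoxide dismutases, 5 of NADPH supply and 9 other NRF2 targets.

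Each of the 14 groups had 3 libraries. Male induced pluripotent stem cells (iPSCs), reprogrammed with a tetO-4F2A cassette from fibroblasts of 1 fetus and so a single line, were exposed to vehicle, 1, 50 or 100 µM BPS in the dose series. Primary Sertoli cells (the supporting cells of the testis tubule) and granulosa cells (the supporting cells of the ovarian follicle), each pooled from littermates at postnatal day 20, received 1 µM BPS or vehicle. These exposures lasted 24 h in sealed flasks and ended with 24 h in clean medium. Primordial germ cell-like cells (PGCLCs), made from iPSCs through epiblast-like cells, received 1 µM BPS or vehicle for 24 h in multiwell plates, with 8 h of recovery before they were sorted on FUT4 and ITGB3 (directly exposed PGCLCs). A second iPSC experiment repeated 1 µM BPS and vehicle, and PGCLCs were also made from iPSCs exposed before differentiation (derived PGCLCs).

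Values are CPM, the reads of a gene relative to the reads of its library after the authors' scaling. Libraries held 26693847 to 44524376 reads. Differences are BPS minus vehicle on the log2(CPM + 0.0313) scale from limma, given with their standard errors, and a member was called where its p, adjusted by Benjamini-Hochberg over every gene with 0.5 CPM in at least 3 libraries, was at most 0.05. The study's methods describe 3 replicate flasks or plate batches per exposure and the labels name no separate animals, so the p-values measure the spread between these libraries only. Defining markers fitted the labels in part: Foxl2 averaged 140.3 CPM in vehicle granulosa cells. However, Fut4 stayed at or below 0.147 CPM in vehicle iPSCs, and Amh and Fshr reached at most 9.12 and 4.67 CPM in vehicle Sertoli cells. PGCLC markers summed to 247.9 to 254.4 CPM in vehicle directly exposed PGCLCs against 169.8 to 173.6 CPM in vehicle dose-series iPSCs. For iPSC markers, which include Nanog, used in the paper as a PGCLC marker, the sums were 2308 to 2364 against 3606 to 3686 CPM. Vehicle granulosa cultures also held fibroblast and stroma markers at a summed 4621 to 4958 CPM and smooth muscle markers at 2158 to 2223 CPM, beside granulosa markers at 2534 to 2605 CPM. In vehicle Sertoli cultures the same sums were 1194 to 1313 and 1174 to 1296 CPM, beside Sertoli markers at 5678 to 5904 CPM.

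Of the 47 members, 19 were called in at least 2 of the 8 comparisons with vehicle. The matching share of all genes was not computed. Of all genes, 26.4% and 30.7% were called in iPSCs at 50 and 100 µM and 26.6% in directly exposed PGCLCs. Of the 19 members, 15 had a promoter in the RefSeq promoter table (GRCm38.p6, 250 bases before to 50 bases after the start of transcription). The core of the antioxidant response element was searched as TGACNNNGC on both strands, without regard to overlap with other motifs. It occurred in 5 of these 15. Over all members with a listed promoter it occurred in 14 of 41 (34.1%), against 16.1% of the 15826 genes of the expression table with a listed promoter and 14% of all 27025 genes with one. A match describes letters and not binding. A gene was counted where any of its listed promoters held the core, and a core outside this window would be missed. For each of the 5 of 15 genes with the core, 1 promoter holding it is shown with the core in capitals. A second listed Abcc4 promoter also held the core (at -23), and a second Me1 promoter did not. The promoters of Nqo1 and Gstm2 follow, which had no match and were among the members called most often. Gpx8, called as often as Nqo1, also had no match, and Gsr had no listed promoter. Positions are counted from 0 at the start of transcription. The windows are chr9:86695865-86696164 on the minus strand (Me1, core at -6), chr2:152105274-152105573 on the plus strand (Srxn1, core at 28 on the opposite strand), chr3:107895604-107895903 on the plus strand (Gstm5, core at -42), chr10:82858956-82859255 on the plus strand (1 of 3 listed Txnrd1 promoters, core at -92 on the opposite strand), chr14:118706170-118706469 on the minus strand (the first of the listed Abcc4 promoters, core at -25 on the opposite strand), chr8:107403156-107403455 on the minus strand (Nqo1) and chr3:107986371-107986670 on the minus strand (Gstm2).
Me1: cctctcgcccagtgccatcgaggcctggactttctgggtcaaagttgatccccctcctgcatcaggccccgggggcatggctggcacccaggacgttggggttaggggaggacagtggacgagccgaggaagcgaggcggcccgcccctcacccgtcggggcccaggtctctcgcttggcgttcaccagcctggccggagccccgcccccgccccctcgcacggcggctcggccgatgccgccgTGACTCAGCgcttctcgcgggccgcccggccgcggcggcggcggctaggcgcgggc
Srxn1: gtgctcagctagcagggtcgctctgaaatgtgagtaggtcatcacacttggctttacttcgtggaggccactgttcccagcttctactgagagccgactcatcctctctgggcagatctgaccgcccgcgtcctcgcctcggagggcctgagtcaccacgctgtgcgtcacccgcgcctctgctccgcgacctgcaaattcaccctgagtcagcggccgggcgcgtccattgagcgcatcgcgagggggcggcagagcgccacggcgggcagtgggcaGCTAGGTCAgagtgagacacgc
Gstm5: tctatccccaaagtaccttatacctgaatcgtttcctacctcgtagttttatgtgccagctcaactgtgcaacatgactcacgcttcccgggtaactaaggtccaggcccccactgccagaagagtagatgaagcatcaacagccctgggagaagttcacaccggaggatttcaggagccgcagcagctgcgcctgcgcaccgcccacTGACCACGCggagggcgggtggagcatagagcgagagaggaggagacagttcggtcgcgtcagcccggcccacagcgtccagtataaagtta
Txnrd1: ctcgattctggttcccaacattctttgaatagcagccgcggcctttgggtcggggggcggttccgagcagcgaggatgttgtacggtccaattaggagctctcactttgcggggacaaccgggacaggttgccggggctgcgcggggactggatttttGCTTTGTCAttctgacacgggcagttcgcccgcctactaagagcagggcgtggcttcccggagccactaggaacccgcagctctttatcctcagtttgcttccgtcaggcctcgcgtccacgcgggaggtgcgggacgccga
Abcc4: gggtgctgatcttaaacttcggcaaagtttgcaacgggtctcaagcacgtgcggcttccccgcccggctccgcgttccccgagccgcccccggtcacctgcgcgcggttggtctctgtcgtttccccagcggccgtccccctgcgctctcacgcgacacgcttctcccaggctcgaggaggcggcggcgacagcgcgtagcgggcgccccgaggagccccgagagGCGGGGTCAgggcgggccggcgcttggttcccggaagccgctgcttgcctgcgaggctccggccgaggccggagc
Nqo1: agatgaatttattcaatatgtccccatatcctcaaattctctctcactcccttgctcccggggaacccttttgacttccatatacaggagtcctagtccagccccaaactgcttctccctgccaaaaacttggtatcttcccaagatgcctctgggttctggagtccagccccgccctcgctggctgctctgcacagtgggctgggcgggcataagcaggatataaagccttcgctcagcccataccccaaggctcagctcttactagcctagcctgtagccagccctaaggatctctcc
Gstm2: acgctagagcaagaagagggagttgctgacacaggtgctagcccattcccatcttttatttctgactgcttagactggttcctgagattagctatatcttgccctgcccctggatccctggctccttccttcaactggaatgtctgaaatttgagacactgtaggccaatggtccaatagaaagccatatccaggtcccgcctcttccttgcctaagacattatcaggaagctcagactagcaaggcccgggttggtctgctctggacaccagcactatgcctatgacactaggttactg

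The dose series asked which genes of iPSCs changed at 1, 50 and 100 µM BPS. Several glutathione transferases, the quinone reductase Nqo1, the malic enzyme Me1 and sulfiredoxin Srxn1 were higher at all 3 doses, while glutathione reductase Gsr was lower at all 3, though its call at 1 µM was lost in 10 of 13 alternatives. Of 43 members tested, 8 were called at 1 µM (7 higher, 1 lower), which is 18.6% of them against 8.54% of all genes tested. At 50 µM, 14 were called (10 higher, 4 lower), 32.6% against 26.4% of all genes, and at 100 µM 17 were called (11 higher, 6 lower), 39.5% against 30.7%. The median difference over the members tested was 0.01, 0.01 and 0.02 at the 3 doses, beside -0.00836, -0.00338 and -0.000268 over all genes. All 3 doses were set against the same 3 vehicle libraries, and the doses were not tested against each other. Exposed and vehicle libraries did not overlap for 15, 23 and 22 of the 43 members, beside 27.5%, 43.9% and 49.2% of all genes. In bulk RNA a gene can be higher because more cells express it or because each cell holds more of its RNA, and these cannot be told apart.

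Gsto1 (chr19:47854973-47864790), an omega-class transferase that also reduces dehydroascorbate, stood at 20.49, 21.2 and 25.9 CPM in vehicle, 29.1, 36.8 and 33.02 CPM at 1 µM, 34.9, 34.9 and 37.3 CPM at 50 µM and 31.3, 33.9 and 34.4 CPM at 100 µM. All exposed libraries lay above all vehicle libraries, and the differences were 0.55 ± 0.09, 0.67 ± 0.09 and 0.57 ± 0.09 (adjusted p = 0.000507, 2.00e-05 and 8.84e-05, limma). Gstm2, a mu-class transferase, measured 27.1, 28.8 and 29.9 CPM in vehicle, 33.2, 38.2 and 34.1 CPM at 1 µM, 38.4, 34.4 and 35.7 CPM at 50 µM and 34.3, 36.7 and 37.5 CPM at 100 µM. Its exposed libraries also lay above every vehicle library, and the mean differences were 0.30, 0.34 and 0.34 (adjusted p = 0.0076, 0.000894 and 0.000746, limma). Its neighbour Gstm6 measured 3.53, 4.96 and 4.60 CPM in vehicle, 5.45, 6.59 and 6.66 CPM at 1 µM, 5.60, 6.57 and 7.97 CPM at 50 µM and 5.90, 6.22 and 6.95 CPM at 100 µM, again without overlap, with differences of 0.52 ± 0.14, 0.62 ± 0.14 and 0.55 ± 0.14. The mu-class genes lie in 1 cluster on chromosome 3 and are alike in sequence, so reads may be shared among them.

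Other mu-class genes were called at the higher doses only. Gstm4 stood at 5.18, 5.06 and 5.22 CPM in vehicle, 5.26, 6.33 and 5.22 CPM at 1 µM, 6.67, 5.88 and 6.18 CPM at 50 µM and 6.25, 5.56 and 5.77 CPM at 100 µM, and was called at 50 µM (0.27 ± 0.10, adjusted p = 0.0486, limma), a call lost in 10 of 13 alternatives, each left-out replicate included. Vehicle and 1 µM libraries overlapped for Gstm4, those at 50 and 100 µM lay above vehicle. Gstm5, with few reads, stood at 1.29, 1.37 and 1.64 CPM in vehicle, 1.27, 2.45 and 1.69 CPM at 1 µM, 1.70, 1.96 and 2.20 CPM at 50 µM and 2.15, 1.78 and 2.50 CPM at 100 µM. The 1 µM libraries of Gstm5 spanned the vehicle range, and only 100 µM was called (0.57 ± 0.21, adjusted p = 0.0425, limma), which was lost in 6 of 13. Gstp1, the pi-class transferase, averaged 65.6 CPM in vehicle and 72.1, 75.4 and 77.7 CPM at the 3 doses and was called at 50 and 100 µM. A second copy of Gstp1 in the table averaged 23.1 CPM in vehicle and 27.4, 27.3 and 27.7 CPM at the 3 doses, so its reads may be split. Gstm1 averaged 70.7 CPM at 100 µM against 61.3 CPM in vehicle and was called at that dose alone (0.21).

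Among the enzymes that make, recycle and use glutathione, a peroxidase and the reductase moved in opposite directions. Gpx8 (chr13:113042757-113046430), a peroxidase of the endoplasmic reticulum membrane, measured 2.89, 3.06 and 3.58 CPM in vehicle, 4.24, 6.44 and 4.31 CPM at 1 µM, 5.07, 4.58 and 5.53 CPM at 50 µM and 4.88, 4.29 and 4.15 CPM at 100 µM. All exposed libraries exceeded vehicle, a 1 µM library the most, and the differences were 0.63 ± 0.14, 0.67 ± 0.14 and 0.48 ± 0.14 (adjusted p = 0.0103, 0.0022 and 0.0164, limma). Gsr, which returns oxidised glutathione to its reduced form with NADPH, stood at 298, 288 and 285 CPM in vehicle, 259.8, 266 and 257 CPM at 1 µM, 266, 251 and 239 CPM at 50 µM and 255, 256 and 258 CPM at 100 µM. Each exposed library lay below every vehicle library, and the differences were -0.15 ± 0.05, -0.21 ± 0.05 and -0.18 ± 0.05 (adjusted p = 0.0486, 0.00334 and 0.00776, limma). The ligase subunits Gclc and Gclm, which set the rate of glutathione synthesis, were called at none of the 3 doses, with differences of 0.01, 0.02 and 0.03 for Gclc and -0.09, -0.12 and -0.13 for Gclm. The 95% interval for Gclc at 100 µM ran between -0.06 and 0.13. Gss (glutathione synthetase) and the peroxidases Gpx1, Gpx3, Gpx4 and Gpx7 were not called at any dose either.

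In the thioredoxin and peroxiredoxin system, Srxn1, which reactivates over-oxidised peroxiredoxins and carries a core in its promoter window, measured 50.3, 45.4 and 49.7 CPM in vehicle, 55.6, 60.2 and 56.7 CPM at 1 µM, 60.6, 58.9 and 67.1 CPM at 50 µM and 56.7, 56.3 and 58.3 CPM at 100 µM. Exposed and vehicle libraries did not overlap, and Srxn1 was called at each dose (0.25 ± 0.06, 0.36 ± 0.06 and 0.24 ± 0.06). Prdx6, a peroxiredoxin that repairs oxidised membrane lipids, went the other way, with 40.6, 38.1 and 42.7 CPM in vehicle, 35.9, 39.9 and 35.5 CPM at 1 µM, 35.6, 35.6 and 35.2 CPM at 50 µM and 30.4, 33.5 and 34.1 CPM at 100 µM. It overlapped vehicle at 1 µM and was called at 50 µM (-0.19, adjusted p = 0.0309, limma) and at 100 µM (-0.31, adjusted p = 0.00117, limma). Txnrd1, the reductase that recharges thioredoxin, averaged 292 ± 9.38 CPM at 100 µM against 328 ± 6.77 CPM in vehicle (SD, n = 3) and was called lower at that dose. Thioredoxin itself (Txn1) and Prdx1 were called at no dose, nor were Cat, Sod1 and Sod2, the enzymes that remove hydrogen peroxide and superoxide.

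NADPH supply was split. Me1 (chr9:86581363-86695914), which makes NADPH from malate in the cytosol, stood at 44.9, 42.5 and 43.7 CPM in vehicle, 49.9, 54.7 and 54.2 CPM at 1 µM, 53.5, 55.9 and 56.2 CPM at 50 µM and 54.8, 55.5 and 53.9 CPM at 100 µM. All exposed libraries lay above vehicle, with differences of 0.27 ± 0.05, 0.34 ± 0.05 and 0.32 ± 0.05 (adjusted p = 0.0024, 0.000117 and 0.000138, limma). The pentose phosphate enzyme Tkt averaged 475 CPM at 50 µM and 475 CPM at 100 µM against 529 CPM in vehicle and was called lower at both. Taldo1, of the same pathway, was called lower at 100 µM (-0.15), while G6pdx and Pgd, its NADPH-making enzymes, were not called. Pgd has a second copy in the table, so its reads may be split as well.

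Among the remaining NRF2 targets, Nqo1 (chr8:107388225-107403205), which reduces quinones, measured 113, 112 and 116 CPM in vehicle, 124, 149.9 and 134 CPM at 1 µM, 152, 142 and 143 CPM at 50 µM and 137, 140.3 and 153 CPM at 100 µM. The exposed libraries lay above the vehicle libraries without overlap, with differences of 0.25 ± 0.06, 0.36 ± 0.06 and 0.33 ± 0.06 (adjusted p = 0.0143, 0.000332 and 0.000538, limma). Cbr3, a carbonyl reductase, was called higher at 50 and 100 µM (0.27 and 0.27), the exporter Abcc4 lower at 50 µM (-0.22) and the epoxide hydrolase Ephx1 lower at 100 µM (-0.22). Hmox1 (heme oxygenase), Blvrb, Fth1, Osgin1 and Abcc1 were not called. Nfe2l2 and Keap1 themselves were called at no dose: Nfe2l2 averaged 137 CPM in vehicle and 139, 135 and 139 CPM at the 3 doses, and Keap1 69.98 CPM in vehicle and 68.9, 70.8 and 70.9 CPM. Gsta1, Gsta2, Gstt1 and Mgst1 had too few reads in iPSCs to be tested, and Gsta3 and Gsta4 were tested without a call.

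**Figure D1:**
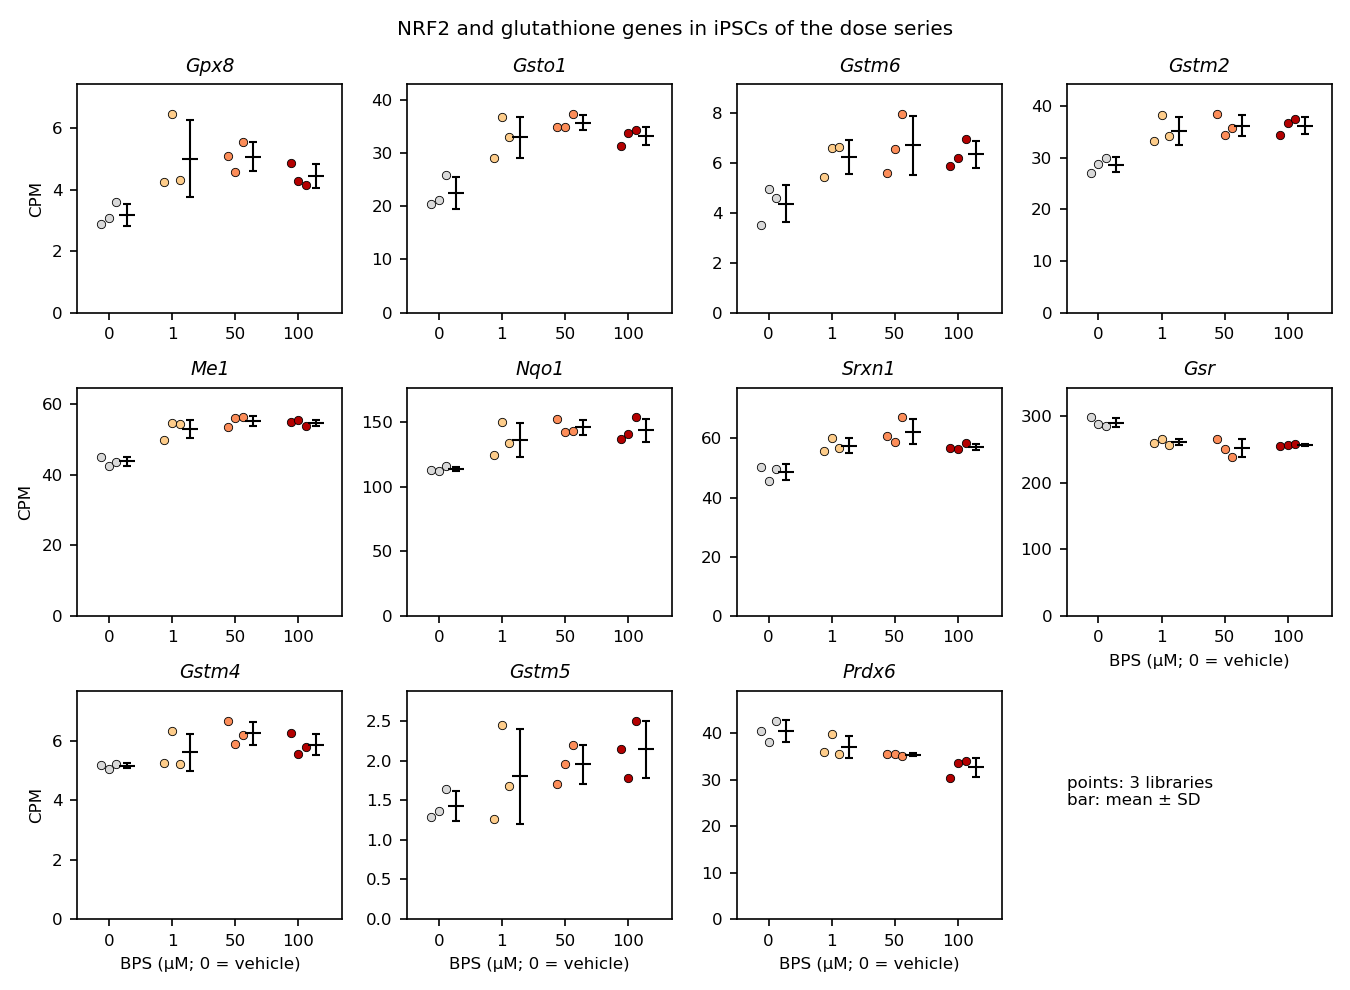
CPM (linear axis from 0) of the 11 members with the largest called differences in dose-series iPSCs, by BPS dose in µM with 0 for vehicle. Points are the 3 libraries of a dose and bars their mean ± SD. For Gpx8, Gsto1, Gstm6, Gstm2, Me1, Nqo1 and Srxn1 all exposed points lie above the vehicle points, and for Gsr all lie below.

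The wider list of 64 other antioxidant and electrophile response genes had 56 tested in these iPSCs. Of these 8 were called at 1 µM (6 higher, 2 lower), 22 at 50 µM (11 and 11) and 23 at 100 µM (12 and 11). The shares were 14.3%, 39.3% and 41.1% of those tested, against 8.54%, 26.4% and 30.7% of all genes. Maff, a small MAF partner of NRF2, averaged 4.89 CPM in vehicle and 6.76, 7.51 and 8.64 CPM at the 3 doses, and was called at each. Sqstm1, an autophagy receptor that binds KEAP1, averaged 235 CPM in vehicle and 277, 289 and 275 CPM, also called at each. Chac1, which degrades glutathione, was called lower at each, with 5.97 CPM in vehicle and 4.49, 4.29 and 3.25 CPM. Abcc5, an exporter, averaged 192 CPM in vehicle and 215, 239 and 242 CPM, and Aox1, aldehyde oxidase, 1.95 CPM in vehicle and 3.11, 2.80 and 3.20 CPM, both called higher at each dose.

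The count at 1 µM was 3 without vehicle replicate 1, 5 without vehicle replicate 2, and 4 with either no low-level filter or a fit of the 6 libraries compared, while at 100 µM it was 11 without vehicle replicate 1 and also 11 without the first 100 µM replicate. Gsto1 and Me1 kept their calls at every dose in all 13 alternatives. The calls of Prdx6 at 50 µM and Taldo1 at 100 µM were lost in 8 each, and those of Abcc4 at 50 µM and Ephx1 at 100 µM in 7 each. Tkt lost its call in 5 at 50 µM and in 4 at 100 µM, and Gstp1 at 50 µM and Gstm1 at 100 µM lost theirs in 3 each. Prdx6 at 100 µM lost its call in 0. At 1 µM the highest adjusted p of Gsr was 0.201 (limma), and the call of Nqo1 was lost in 5, Gstm6 in 4, Gpx8 in 3 and Gstm2 and Srxn1 in 1 each, whereas at 50 and 100 µM Gsr, Gstm6, Gstm2 and Srxn1 lost none, Nqo1 lost 1 at each dose and Gpx8 lost 4 at 100 µM. With upper-quartile scaling the split was 7 higher and 0 lower at 1 µM and 12 and 1 at 50 µM. The 1 µM libraries differed more from each other (mean chi-square per gene 19.18 to 25.54) than those of the other groups (3.409 to 7.561). The standard errors come from 1 fit of the 4 groups and do not show this. The summed PGCLC markers were lower in exposed iPSCs, at 169.8 to 173.6 CPM in vehicle and 135.1 to 145.2, 129.7 to 136.5 and 132 to 136.2 CPM at the 3 doses, and the part of this in the results was not tested.

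In granulosa cells exposed to 1 µM BPS, 10 of 46 members tested were called, all higher (21.7% against 2.60% of all genes, of which 306 were higher and 103 lower). They comprised 5 transferases, 2 NADPH enzymes and 3 other targets, and none from glutathione synthesis, peroxidases, thioredoxin or superoxide dismutases. The median difference over members was 0.08 against 0.0218 over all genes, and 40 of 46 members had positive values, beside 61% of all genes. BPS and vehicle libraries did not overlap for 22 of the 46, beside 19.9% of all genes. Gsta4 (chr9:78191966-78209349), an alpha-class transferase that conjugates the lipid peroxidation product hydroxynonenal, stood at 13.999, 13.97 and 13.7 CPM with BPS against 9.51, 9.90 and 8.81 CPM with vehicle. The groups did not overlap, and the difference was 0.56 ± 0.07 (adjusted p = 0.000131, limma).

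Osgin1, a growth inhibitor induced by oxidants, measured 18.999, 16.6 and 18.1 CPM with BPS and 14.7, 15.2 and 14.4 CPM with vehicle, and Gsta3, which in mice conjugates the aflatoxin epoxide, measured 17.6, 15.7 and 16.99 CPM with BPS and 13.7, 14.02 and 13.8 CPM with vehicle. Neither gene's groups overlapped (differences 0.28 ± 0.06 and 0.27 ± 0.06). Gstm1 had 685, 633 and 639.6 CPM with BPS and 533, 581 and 572 CPM with vehicle, and Gstm2 381, 349 and 356 CPM with BPS and 307, 329.8 and 322 CPM with vehicle. Both mu-class genes were separated between groups (adjusted p = 0.00126 and 0.00562, limma). Ephx1, the microsomal epoxide hydrolase, had 111, 106 and 114 CPM with BPS and 94.7, 97.1 and 98.1 CPM with vehicle, Hmox1 93.3, 95.1 and 94.3 CPM with BPS and 86.2, 87.5 and 83.3 CPM with vehicle, and Gstp1 80.05, 79.4 and 78.4 CPM with BPS and 72.8, 72.2 and 71.4 CPM with vehicle. None of the 3 overlapped between groups, and they rose by 0.19, 0.14 and 0.14 on the log2 scale. Me1 averaged 731 ± 18.1 CPM with BPS against 676 ± 9.40 CPM with vehicle, and Tkt 339 ± 6.32 CPM against 315 ± 2.04 CPM (SD, n = 3). Nqo1, higher in iPSCs, was not called here at 7.60 ± 0.309 CPM with BPS against 6.39 ± 0.905 CPM with vehicle (interval of the difference 0.05 to 0.47).

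Of the wider list, 5 of 59 tested were called in granulosa cells, all higher (8.47% against 2.60% of all genes). They were Aldh1a1, an aldehyde dehydrogenase (2561 CPM with BPS, 2170.3 CPM with vehicle), the ferritin light chain Ftl1, Prdx2, the methionine sulfoxide reductase Msrb1 and the mitochondrial NADPH enzyme Idh2. The count of members was 4 without vehicle replicate 3 or without BPS replicate 1, 6 with upper-quartile scaling, 1 in a fit of all 42 libraries and 0 without the low-level filter, under which 9 genes in all were called against 409. By gene, the call of Me1 was lost in 8 of 12 alternatives, of Hmox1 and Tkt in 7 each, and of Gsta3, Gstp1 and Osgin1 in 6 each. The calls of Gstm1, Gstm2 and Ephx1 were lost in 2 each and that of Gsta4 in 1. Vehicle replicate 2 stood apart from the other vehicle libraries (mean chi-square per gene 17.94 and 25.11, against 3.601 between those). Smooth muscle markers summed to 2401 to 2516 CPM with BPS against 2158 to 2223 CPM with vehicle, Sertoli markers to 2491 to 2758 CPM against 2239 to 2377 CPM, and theca and Leydig markers to 625.1 to 656.6 CPM against 686.6 to 775.4 CPM. Whether this shift bears on the members was not tested.

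Sertoli cells at the same dose had 1 member called of 46 (2.17% against 5.24% of all genes), thioredoxin. Txn1 (chr4:57943373-57956411) stood at 294, 294 and 269.5 CPM with BPS against 260.4, 249.996 and 235 CPM with vehicle. The BPS libraries all lay above vehicle, the lowest of them only slightly, with a difference of 0.20 ± 0.04 (adjusted p = 0.00984, limma). At an unadjusted p of 0.05 or less there were 16 members, beside 3425 of all 15648 genes. The median over members was 0.04 against 0.00959 over all genes, and 17 of 46 members did not overlap between groups, beside 25.6% of all genes. Nqo1 averaged 6.39 ± 1.59 CPM with BPS and 6.40 ± 0.766 CPM with vehicle, and Gsr 219.6 ± 3.69 CPM with BPS and 206 ± 3.27 CPM with vehicle, neither called. Idh2, Esd, Ftl1 and Glrx5 were the 4 of 59 called in the wider list, all higher (6.78% against 5.24% of all genes). The count was 0 without BPS replicate 1, without BPS replicate 2, without the low-level filter or with all 42 libraries in the fit, 3 without vehicle replicate 1, 5 without BPS replicate 3 and 2 with voom. The summed Sertoli markers were 4596 to 5296 CPM with BPS and 5678 to 5904 CPM with vehicle, and their part was not tested.

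Directly exposed PGCLCs had 16 of 44 members called, 5 higher and 11 lower (36.4% against 26.6% of all genes, 2511 higher and 1843 lower). The lower genes included Nfe2l2 itself, the transferases Gstm2 and Gsta4, and Nqo1, Hmox1, Ephx1 and Abcc4, while the higher ones were Gpx8, Gstm5, Gpx3, Prdx6 and Fth1. The median over members was -0.01 against 0.0155 over all genes, and 20 of 44 members did not overlap between groups, beside 41.3% of all genes. Gpx8 stood at 11.1, 11.6 and 12.6 CPM with BPS against 8.23, 8.94 and 9.12 CPM with vehicle. The groups did not overlap, and the difference of 0.42 ± 0.08 (adjusted p = 0.00103, limma) had the same sign as in iPSCs. Gstm2 stood at 6.64, 5.55 and 5.40 CPM with BPS and 7.49, 8.08 and 7.30 CPM with vehicle, and Nqo1 at 23.03, 21.3 and 23.02 CPM with BPS and 26.04, 28.7 and 27.3 CPM with vehicle. Both lay below vehicle in every exposed library (-0.38 ± 0.10, adjusted p = 0.01, and -0.29 ± 0.05, adjusted p = 0.00139, limma), opposite in sign to the iPSC values.

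The remaining large differences were mostly declines. Ephx1 had 10.1, 9.58 and 9.74 CPM with BPS and 11.2, 12.5 and 11.8 CPM with vehicle, and the exporter Abcc4 59.1, 55.2 and 55.5 CPM with BPS and 61.99, 68.5 and 69.9 CPM with vehicle. Gsta4 had 133, 121 and 120.1 CPM with BPS and 146, 152 and 142 CPM with vehicle, and Gsr 178, 166 and 169.8 CPM with BPS and 197, 197 and 198 CPM with vehicle. None of these 4 overlapped between groups, and Gsr, with almost no spread in vehicle, gave the smallest adjusted p of the members (-0.20 ± 0.03, adjusted p = 0.000289, limma). Gstm5 was higher, with 15.5, 16.2 and 15.3 CPM under BPS and 13.7, 13.3 and 13.1 CPM under vehicle. Sod2, the mitochondrial superoxide dismutase, averaged 91.1 ± 4.59 CPM with BPS against 105 ± 2.46 CPM with vehicle, and Nfe2l2 68.3 ± 3.17 CPM against 76.1 ± 2.74 CPM (SD, n = 3, differences -0.20 and -0.16). Hmox1, Txnrd1 and Gpx1 were also called lower, with differences of -0.17, -0.11 and -0.10, and the secreted peroxidase Gpx3, Prdx6 and the ferritin heavy chain Fth1 higher, with 0.15, 0.15 and 0.14. The call of Gpx1 was lost in 6 of 12 alternatives and that of Gpx3 in 4, the others in at most 3 each. No gene of NADPH supply was called by limma, none passed an unadjusted p of 0.05, and Keap1 was not called (0.14, adjusted p = 0.0523, limma).

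**Figure D2:**
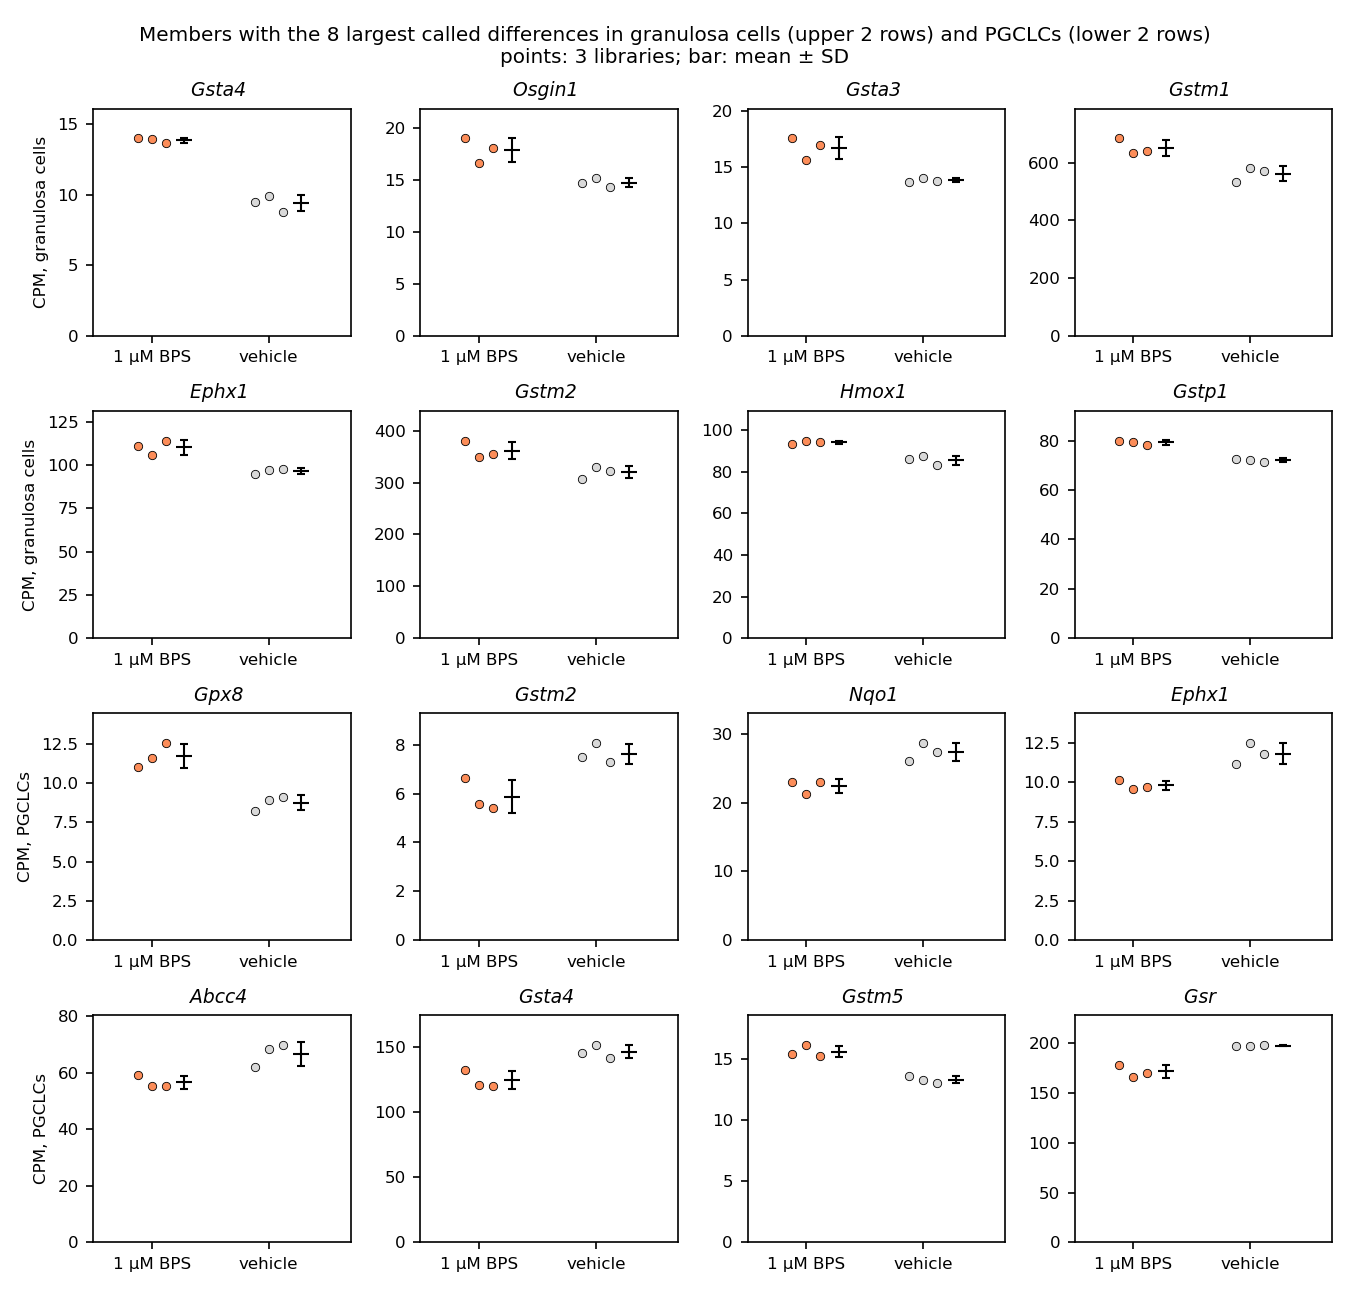
CPM (linear axis from 0) with 1 µM BPS and with vehicle for the 8 largest called differences in granulosa cells (upper rows) and in directly exposed PGCLCs (lower rows). Points are the 3 libraries of a group and bars their mean ± SD. BPS points lie above vehicle for all 8 granulosa panels, and in PGCLCs Gpx8 and Gstm5 lie above while the other 6 lie below.

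The wider list had 16 of 58 called in these PGCLCs (10 higher, 6 lower), 27.6% against 26.6% of all genes, so near the share of all genes. Maff was lower (14.9 CPM with BPS, 20.9 CPM with vehicle), as was Bach1, a repressor that competes with NRF2 at its sites (52.4 CPM with BPS, 63.8 CPM with vehicle), whereas the glutaredoxin Glrx5 was higher (50.4 CPM with BPS, 42.4 CPM with vehicle). In libraries not used for these calls, the 11 lower members were also lower in vehicle derived PGCLCs than in vehicle iPSCs of the second experiment (11 of 11, beside 1080 of 1843, 58.6%, of all genes called lower), and 4 of the 5 higher members were higher there (beside 56.3% of all genes called higher). Of the 28 members not called, 19 (67.9%) were lower in those PGCLCs, beside 38.3% of all genes not called. iPSC markers summed to 1818 to 2022 CPM in BPS-exposed PGCLCs against 2308 to 2364 CPM in vehicle PGCLCs, PGCLC markers to 203.1 to 233.3 CPM against 247.9 to 254.4 CPM, and fibroblast and stroma markers to 85.19 to 93.82 CPM against 78.09 to 82.61 CPM. The part of these shifts in the members' values was not tested. Vehicle replicate 1 stood apart from the other vehicle libraries (mean chi-square per gene 40.95 and 38.16, against 2.02 between those) and held 1.03% rRNA-type reads, against 0.0481% and 0.0832%. Without it 14 members were called (4 higher, 10 lower). The count was 10 without the low-level filter and 4 (all lower) in a fit of all 42 libraries.

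The second iPSC experiment, again 1 µM, had 0 of 42 members called by limma, with 9 at an unadjusted p under 0.05 and 0 called by voom. Of all 15572 genes 2 were called (0.0128%) and 1744 had an unadjusted p under 0.05. The smallest adjusted p among members was 0.32 (Gstm7, 0.77 ± 0.18). BPS and vehicle libraries did not overlap for 16 of 42 members, beside 26.4% of all genes. BPS replicate 2 stood apart: it was farthest from the other BPS libraries for 40 of 42 members (95.2%, beside 69.3% of all 15572 genes), and the highest of the 3 for 37. Gstm2 stood at 34.7, 43.9 and 35.002 CPM with BPS against 28.2, 27.8 and 28.6 CPM with vehicle, and Cbr3 at 70.1, 99.2 and 76.5 CPM with BPS against 55.2, 56.7 and 61.05 CPM with vehicle. Replicate 2 gave the highest value in both, yet the other BPS libraries also lay above vehicle. Sod1 had 408, 642 and 405 CPM with BPS and 406, 391 and 413 CPM with vehicle, where replicate 2 alone was high.

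Without BPS replicate 2, 8 members were called, 6 higher (Gstm1, Gstm2, Gsto1, Gss, Nqo1 and Cbr3) and 2 lower (Tkt and Abcc4), beside 1484 of all 15392 genes tested then (9.64%). Their differences were then 0.15, 0.31, 0.21, 0.25, 0.19 and 0.35, and -0.12 and -0.12, with adjusted p between 0.000176 and 0.0472 (limma, 2 BPS against 3 vehicle libraries). Gsto1 stood at 22.98, 30.2 and 22.3 CPM with BPS against 20.3, 19.5 and 18.8 CPM with vehicle, Nqo1 at 164, 184 and 159.6 CPM against 143, 143 and 139.9 CPM, and Me1 at 53.3, 59.3 and 55.1 CPM against 51.002, 51.1 and 48.1 CPM. All of these BPS values exceeded vehicle, as in the dose series, although Me1 was not called. In vehicle alone the 2 iPSC experiments differed in 17 of 46 members (37.0% against 28.1% of all genes), for example Gsr at 376 CPM in the second and 290.4 CPM in the dose series, and Ephx1 at 26.7 and 16.97 CPM.

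**Figure D3:**
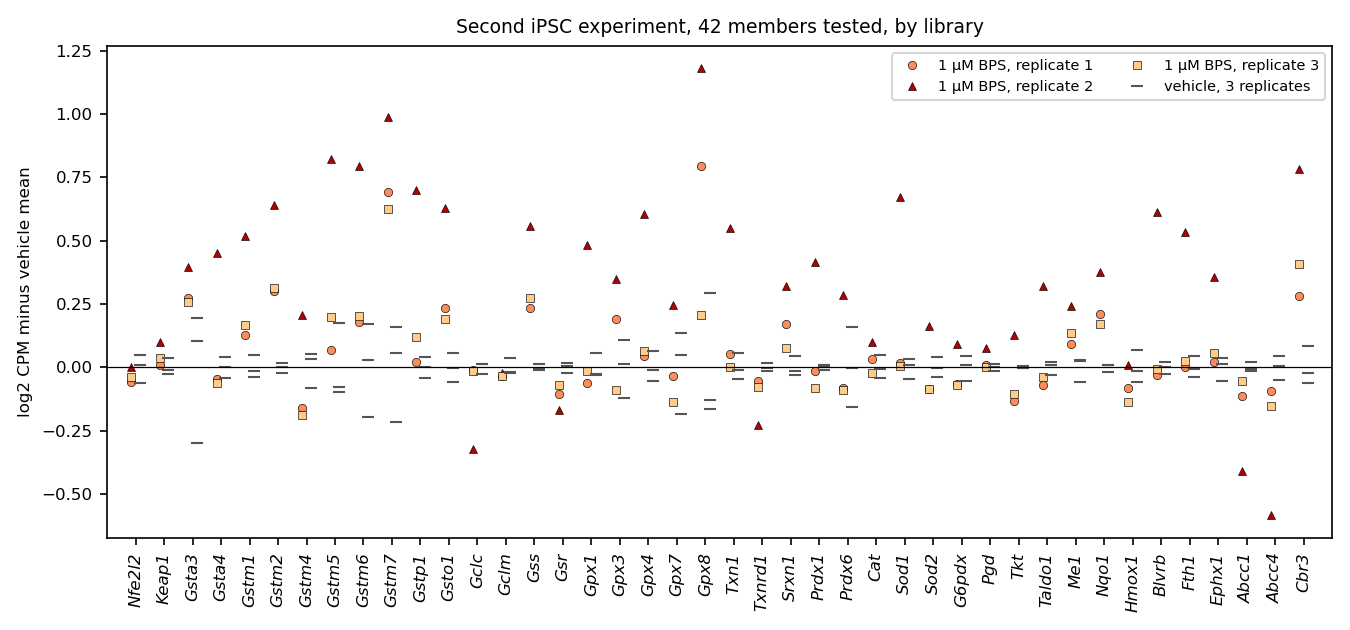
Log2 CPM of each library of the second iPSC experiment minus the vehicle mean, for the 42 members tested. Circles, triangles and squares are 1 µM BPS replicates 1, 2 and 3, and grey dashes are the 3 vehicle libraries. Replicate 2 is the highest BPS library for 37 of the 42 members.

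PGCLCs derived from those exposed iPSCs had 0 of 44 members called (0% of all genes), with 9 at an unadjusted p under 0.05 by limma, beside 2578 of all 16268 genes, and 0 called by voom. The study, using edgeR, reported substantial numbers of genes changed by exposure in both these iPSCs and the derived PGCLCs. It named Gstm7 among those changed in both. In Sertoli and granulosa cells it reported far fewer than the 820 and 409 genes called here. Why its calls differ from these was not tested. Gsr came closest, with 149, 131 and 154 CPM from BPS-exposed and 175, 174 and 164 CPM from vehicle-exposed iPSCs. The groups did not overlap, but the adjusted p was 0.207 (-0.24 ± 0.06, limma). Gstm2 ranged widely at 7.47, 5.89 and 8.03 CPM against 7.94, 8.75 and 8.26 CPM, and Nqo1 at 10.5, 7.95 and 14.2 CPM against 15.8, 9.73 and 14.4 CPM, with overlapping groups. The median over members was -0.07 against 0.00206 over all genes, and 12 of 44 members did not overlap between groups, beside 21.8% of all genes. A fit of all 42 libraries called 2 members here, and 8 in the second iPSC experiment.

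Differences between the responses to 1 µM BPS were tested directly. PGCLCs recovered for 8 h in plates and were then sorted, and iPSCs recovered for 24 h in flasks, so cell type and these conditions cannot be told apart in their contrast. Against dose-series iPSCs, PGCLCs differed in 3 of 46 members (6.52% against 5.92% of all genes), so near the share of all genes. All 3 were lower in PGCLCs, with differences of responses for Gstm2 of -0.68, for Gsto1 of -0.58 and for Me1 of -0.31 (adjusted p = 0.000923, 0.00701 and 0.00355, limma). These 3 calls held in all 17 alternatives, each of which kept dose-series iPSCs as the reference. The response of directly exposed PGCLCs was not compared with that of the second iPSC experiment. Gsto1 in PGCLCs stood at 20.48, 21.2 and 21.7 CPM with BPS and 20.4, 20.7 and 23.6 CPM with vehicle, and Me1 at 31.4, 30.1 and 30.5 CPM with BPS and 31.1, 31.9 and 31.5 CPM with vehicle, overlapping in both cases. For Nqo1 the difference of responses was -0.54 (adjusted p = 0.167, limma) and was not called, although the signs were opposite. Granulosa cells differed from iPSCs in 1 member of 46, Gsto1 (-0.54, 2.17% against 0.709%), with 59.4, 57.7 and 59.3 CPM with BPS and 59.1, 57.9 and 57.7 CPM with vehicle, and this call was lost in 11 of 17 alternatives. Sertoli cells differed in 1, Gsr (0.25, 2.17% against 4.14%), lost in 8 of 17, and with upper-quartile scaling 2 other calls, both lower, stood in its place. The second iPSC experiment differed from the dose series in 0 members by limma (0.139% of all genes, with 2 members at an unadjusted p under 0.05 and 0 called by voom). Derived PGCLCs differed from directly exposed ones in 1, Gstm7 (-0.70, 2.17% against 1.76%), lost in 10 of 17. The 4 contrasts with dose-series iPSCs share those libraries.

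Over the 8 comparisons with vehicle, 18 members were never called, 10 once, 7 in 2, 7 in 3, 4 in 4 and 1 in 5. The matching counts over all genes were not made, and the 3 doses of the iPSC series share their vehicle libraries. The 1 called in 5 was Gstm2, higher in iPSCs at all 3 doses and in granulosa cells and lower in PGCLCs. The 18 were Keap1, the transferases Gsta1, Gsta2, Gstm7, Gstt1 and Mgst1, the glutathione genes Gclc, Gclm, Gss, Gpx4 and Gpx7, Prdx1, Cat, Sod1, G6pdx, Pgd, Blvrb and Abcc1.

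**Figure D4:**
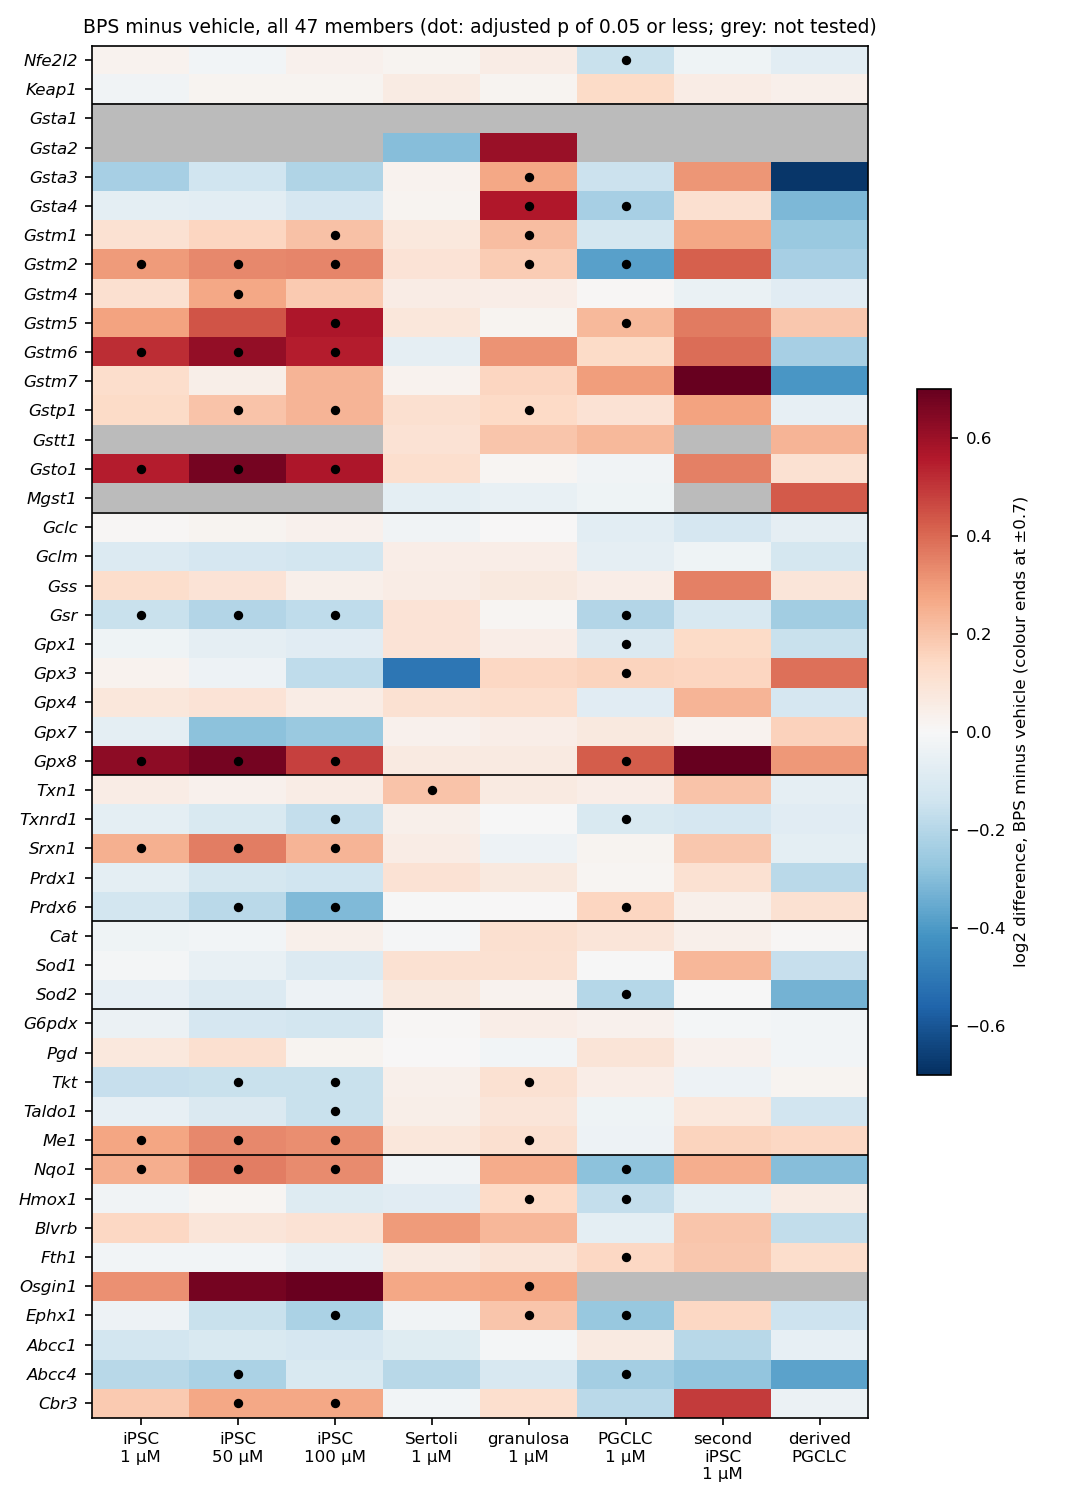
Log2 difference (BPS minus vehicle, colour, ends at ±0.7) of each of the 47 members (rows, grouped by role) in the 8 comparisons (columns). Dots mark an adjusted p of 0.05 or less and grey marks members with too few reads to test. Gstm2 carries 5 dots, and the last 2 columns carry none.

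The last comparisons set cell types side by side without BPS. Vehicle Sertoli cells differed from vehicle dose-series iPSCs in 45 of 46 members (27 higher, 18 lower, 97.8% against 89.1% of all genes), granulosa cells in 44 (26 and 18, 95.7% against 88.4%) and PGCLCs in 39 (11 and 28, 84.8% against 75%). Sertoli and granulosa cells differed from each other in 33 (23 and 10, 71.7% against 69.6%), a split that was 20 and 16 with upper-quartile scaling, and derived PGCLCs from second-experiment iPSCs in 40 (9 and 31, 87.0% against 73.3%). Upper-quartile scaling moved the median of all genes by -0.118 between Sertoli cells and iPSCs and by less than 0.1 elsewhere. Cell type, culture and library preparation go together here and cannot be told apart. Sertoli cells held the highest mean of 19 members, granulosa cells of 8, iPSCs of 6 in the dose series and of 10 in the second experiment, and PGCLCs of 2 in each of their groups.

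Nfe2l2 had 240.2, 237 and 234 CPM in Sertoli cells, 257, 263 and 255 CPM in granulosa cells, 73.8, 79.1 and 75.5 CPM in PGCLCs and 135, 138 and 136 CPM in iPSCs. Second-experiment iPSCs had 128, 124 and 118 CPM and derived PGCLCs 69.1, 67.5 and 71.7 CPM. No group overlapped another, granulosa cells lay highest with Sertoli cells next, and the PGCLC groups lay lowest. Keap1 varied less, with 82.8, 83.6 and 79.1 CPM in Sertoli cells, 66.9, 65.8 and 64.1 CPM in granulosa cells, 37.1, 37.6 and 36.5 CPM in PGCLCs and 70.7, 69.6 and 69.7 CPM in iPSCs.

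Among transferases, Mgst1, a transferase of membranes, had 271, 291 and 294 CPM in Sertoli cells, 165, 171 and 162 CPM in granulosa cells, 1.82, 1.96 and 2.09 CPM in PGCLCs and 0.178, 0.366 and 0.0731 CPM in iPSCs. It was below 1 CPM in second-experiment iPSCs (0.515, 0.0881 and 0.506 CPM) and derived PGCLCs (0.431, 0.459 and 0.702 CPM). Gstm7 had 412, 397 and 399.9 CPM in Sertoli cells against 15.3, 18.02 and 15.8 CPM in granulosa cells, 2.17, 2.16 and 2.24 CPM in PGCLCs and 1.07, 0.866 and 1.13 CPM in iPSCs. Gstm2 had 1927, 2003 and 2015 CPM in Sertoli cells and Gstm6 448, 466 and 430.5 CPM, whereas in granulosa cells Gstm2 had 307, 329.8 and 322 CPM and Gstm6 only 3.95, 4.06 and 4.98 CPM. Thus Gstm6 was at the level of iPSCs and PGCLCs in granulosa cells, where it overlapped both. Gsta4 was also higher in Sertoli than in granulosa cells but was highest in iPSCs. Its means were 224 CPM in Sertoli cells, 9.41 CPM in granulosa cells, 147 CPM in PGCLCs and 343 CPM in iPSCs. Granulosa cells, where Gsta4 gave the smallest adjusted p with BPS, thus held the lowest of the 4 levels.

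Among glutathione enzymes, Gpx8 had 122, 121 and 117 CPM in Sertoli cells, 73.8, 74.6 and 72.8 CPM in granulosa cells, 8.23, 8.94 and 9.12 CPM in PGCLCs and 2.89, 3.06 and 3.58 CPM in iPSCs, and Gpx7 averaged 44.3, 43.1, 14.8 and 4.66 CPM in the same order. Gpx3 was uneven within Sertoli cells, where vehicle replicate 1 stood apart (12.2, 6.64 and 6.35 CPM), and was highest in derived PGCLCs (62.1, 74.9 and 69.01 CPM). Gsr had 208, 202 and 207 CPM in Sertoli cells, 85.7, 83.3 and 77.1 CPM in granulosa cells, 197, 197 and 198 CPM in PGCLCs and 298, 288 and 285 CPM in iPSCs. Sertoli cells and PGCLCs lay close for Gsr without overlap, and granulosa cells lay lowest.

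In the peroxide and superoxide systems, Prdx6 had 202, 195 and 188 CPM in Sertoli cells, 139.7, 137 and 138 CPM in granulosa cells, 260.3, 269 and 266 CPM in PGCLCs and 40.6, 38.1 and 42.7 CPM in iPSCs, so PGCLCs held the most and iPSCs the least. Sod2 had 55.6, 54.9 and 50.9 CPM in Sertoli cells, 53.999, 51.6 and 52.8 CPM in granulosa cells, 102, 105 and 107 CPM in PGCLCs and 275, 278 and 259.8 CPM in iPSCs. Sertoli and granulosa cells overlapped for Sod2, below PGCLCs and iPSCs. Cat, Sod1 and Prdx1 were each lower in Sertoli cells, granulosa cells and PGCLCs than in iPSCs, all called.

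For NADPH supply and the remaining targets, Me1 had 1940.3, 1899.7 and 1993 CPM in Sertoli cells, 669.95, 687 and 672 CPM in granulosa cells, 31.1, 31.9 and 31.5 CPM in PGCLCs and 44.9, 42.5 and 43.7 CPM in iPSCs. Osgin1 had 9.46, 13.3 and 12.8 CPM in Sertoli cells and 14.7, 15.2 and 14.4 CPM in granulosa cells and stayed below 0.5 CPM in vehicle PGCLCs and iPSCs. Both genes were higher in Sertoli and granulosa cells than in the others, and these 2 cell types did not overlap for either. Nqo1 ran the other way, with 7.13, 5.60 and 6.47 CPM in Sertoli cells, 6.51, 7.23 and 5.43 CPM in granulosa cells, 26.04, 28.7 and 27.3 CPM in PGCLCs and 113, 112 and 116 CPM in iPSCs, as did Abcc4, with 4.68, 3.94 and 3.81 CPM in Sertoli cells, 14.1, 15.2 and 13.6 CPM in granulosa cells, 61.99, 68.5 and 69.9 CPM in PGCLCs and 83.99, 89.5 and 84.7 CPM in iPSCs. The Sertoli and granulosa libraries overlapped for Nqo1 and not for Abcc4.

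**Figure D5:**
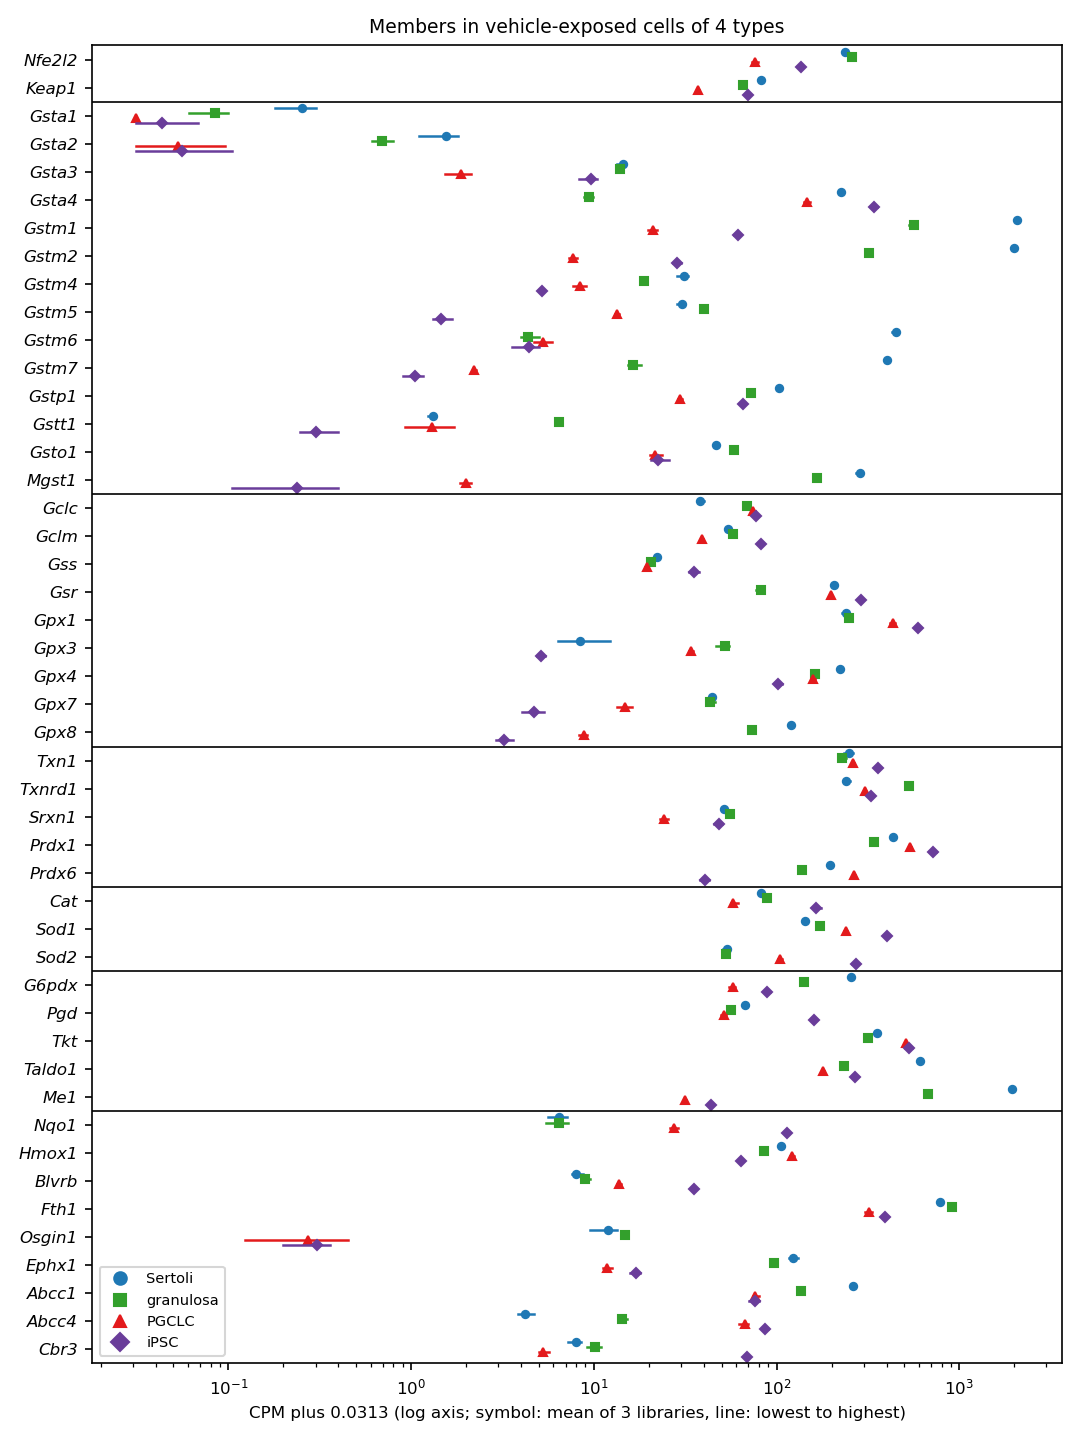
Level of each of the 47 members in vehicle Sertoli cells, granulosa cells, directly exposed PGCLCs and dose-series iPSCs, as CPM plus 0.0313 on a log axis. Symbols are means of 3 libraries and lines run between the lowest and the highest. Mgst1, Gstm7, Gstm2 and Me1 lie far apart between Sertoli cells and iPSCs, while Keap1, Txn1 and Gclm lie close together.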

How the data were processed

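RNA-seq was run on 42 libraries in 14 groups of 3. Per the labels and the study's methods, the authors checked reads with FastQC, aligned them to mm10 with Rsubread, counted reads per gene and computed CPM in edgeR. The deposited log2 values are log2(CPM + 0.0313), scaled by the authors over all libraries together with TMM factors that came out between 0.878 and 1.11. Whole reads were recovered from them within 0.05 reads (at least 99.9% of values in each library), and libraries held 26693847 to 44524376 reads. 0 columns were left without a sample.

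Differences were fitted with limma 3.58.1 (R 4.3.3) with a mean-variance trend: the 4 groups of the dose series together, the other BPS comparisons on their 6 libraries, cell types on the 18 vehicle libraries, and differences of responses on all vehicle and 1 µM libraries in 1 fit. Genes needed 0.5 CPM in 3 libraries. p-values were two-sided and adjusted by Benjamini-Hochberg over all genes tested. The procedure was tested on simulated data. Tables and figures used Python 3.11.15.

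The members, the other lists and the markers were chosen with earlier results of these data known. In each BPS comparison up to 8 called members, by size of difference, are given by library. By cell type, up to 4 members of a role are, by ratio of highest to lowest group mean, and Gsta4 is given as means outside that rule. From the wider list at most 3 genes a comparison are named, by smallest adjusted p, or all where 5 or fewer were called. Alternatives were an added CPM of 1, no filter, upper-quartile scaling, voom on recovered reads, the replicate number as a block, fits of 6 or all 42 libraries, and leaving out each replicate. Locations are GRCm38.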

Additional observations from a re-analysis of the deposited data

Results flagged for a closer look

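Responses to 1 µM BPS were compared in 5 contrasts of 46 members each by limma's test of the difference itself, which gave 6 calls. The share of members called was 6.52% for PGCLCs against iPSCs, 2.17% each for Sertoli cells and granulosa cells against iPSCs and for derived against directly exposed PGCLCs, and 0 between the iPSC experiments, beside 5.92%, 4.14%, 0.709%, 1.76% and 0.139% of all genes. In PGCLCs against dose-series iPSCs the difference of responses was -0.68 for Gstm2, -0.58 for Gsto1 and -0.31 for Me1 on the log2 scale (adjusted p = 0.000923, 0.00701 and 0.00355). None of these was lost in the 17 alternatives run for each, all with dose-series iPSCs as the reference. The share called was near that of all genes. Cell type cannot be told apart here from recovery time (8 h in PGCLCs, 24 h in iPSCs), plate or flask culture and sorting.

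The others were less steady. Gsto1 in granulosa cells against dose-series iPSCs differed by -0.54 (adjusted p = 0.0482, limma), and this was lost in 11 of 17 alternatives. Gsr in Sertoli cells against dose-series iPSCs differed by 0.25 (adjusted p = 0.0272, limma), lost in 8 of 17. Gstm7 in derived against directly exposed PGCLCs differed by -0.70 (adjusted p = 0.0369, limma), lost in 10 of 17. The contrasts with dose-series iPSCs share those libraries.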

How the results depend on the processing

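Of 256 counts of called members under the alternatives, 201 stayed within 1.5 times the reported count and 55 did not, and of 3549 values for single called members 3291 kept their call, 258 lost it and 0 changed sign. Both totals pool the BPS comparisons with the cell types in vehicle and the differences of responses. They therefore do not give the steadiness of the BPS calls alone, many of which were lost more often. In granulosa cells, for example, the call of Me1 was lost in 8 of 12 alternatives and that of Hmox1 in 7. At 1 µM in dose-series iPSCs, where 8 were reported, 4 were called with no filter and 4 with a fit of the 6 libraries compared, and 3 to 10 when a replicate was left out. At 50 µM, 9 were called with all 42 libraries in the fit. At 100 µM, leaving out a replicate gave 11 to 16. In Sertoli cells the count was 0 with no filter, 2 with voom, 0 with all 42 libraries and 0 to 5 with a replicate left out. In granulosa cells it was 0 with no filter, 6 with upper-quartile scaling, 1 with all 42 libraries and 4 to 11 with a replicate left out. In directly exposed PGCLCs it was 10 with no filter and 4 with all 42 libraries. With all 42 libraries it was 8 in the second iPSC experiment and 2 in derived PGCLCs, and 0 to 8 in the second iPSC experiment with a replicate left out. For differences of responses, Sertoli cells against iPSCs gave 2 with upper-quartile scaling, 2 with voom and 0 to 2 with a replicate left out, granulosa cells against iPSCs 0 with no filter and 0 to 1 with a replicate left out, and derived against direct PGCLCs 0 with upper-quartile scaling, 0 with voom and 0 to 2 with a replicate left out. The causes of these shifts were not tested.

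The replicate numbers did not pair the samples: correlations between same-numbered deviations ran between -0.401 and 0.183, and in no comparison were all 3 above 0.1. With a replicate block 7, 13 and 17 members were called at the 3 doses, 7 in Sertoli cells, 7 in granulosa cells, 17 in directly exposed PGCLCs and 0 in the other 2 BPS comparisons, and for differences of responses 2 in Sertoli cells against iPSCs.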
